A study of Homo sapiens with 19 samples.

Results

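RNA drawn out of living cells by nanostraw electroporation (NEE) was compared with RNA from lysates of monolayers that had undergone NEE, to describe which kinds of transcript were relatively rich or poor in the sampled RNA. The comparison held 9 of the 19 samples of the study. The 3 tested libraries were technical replicates of RNA that NEE had sampled from A549 monolayers, and the 6 others were lysates of A549 monolayers taken right after NEE, 2 h after it or 24 h after it, with 2 biological replicates at each time. No library from before NEE was used. Of the 62700 genes in the count files, the 14596 with a CPM (counts scaled to library size) of at least 1 in at least 2 of the 9 libraries were tested. All cells were A549, an established human lung adenocarcinoma line, and the labels name no drug or genetic change. Per the labels, the sampled RNA went through a micro clean-up column, whereas the lysates were extracted with a kit for total RNA. The kit, the amount of input, the culture dish and the experimental arm therefore cannot be told apart from the difference between sampled RNA and lysate. Because the sampled libraries are technical replicates, the p-values measure the spread of a repeated preparation on that side and of 2 cultures per time on the other. These are bulk libraries, in which fewer cells of a type and less RNA per cell cannot be told apart.

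In nanostraw electroporation, cells grow over a membrane that carries nanoscale straws, and short voltage pulses permeabilise the plasma membrane at the straws so that part of the cell content passes through. Within a cell, many mRNAs are translated on free ribosomes in the cytosol, mRNAs of secreted and membrane proteins are mostly translated at the endoplasmic reticulum, and many long non-coding RNAs are kept in the nucleus. Ferritin and ribosomal protein mRNAs are textbook cases of abundant cytosolic mRNAs whose translation is switched by signals in the 5′ end of the transcript: an iron-responsive element, to which iron regulatory proteins bind, and a terminal oligopyrimidine tract, which begins at the cap and ties translation to growth signals.

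The signals in the 5′ ends of these mRNAs are shown first because both kinds of mRNA were higher in the sampled RNA. The 2 ferritin sites come from GENCODE release 29 transcripts on GRCh38, with the 6 letters of the iron-responsive loop in capitals. The FTL site lies in the 5′ UTR at chr19:48965335-48965364 on the plus strand, and the FTH1 site in the 5′ UTR at chr11:61967573-61967602 on the minus strand. Both were found on the sense strand as a C, 5 bases of any kind and then CAGTGN.
FTL: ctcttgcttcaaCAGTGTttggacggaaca
FTH1: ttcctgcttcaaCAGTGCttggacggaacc
These letters stood in the first 120 bases of 3.97% of the 12432 tested protein-coding transcripts, without regard to folding, so the match alone does not mark an element. The start windows below come from RefSeq on GRCh38.p14 and run from 10 bases before the annotated start to 20 bases from it. Capitals mark an unbroken run of C and T that begins with a C at the start base and is followed by at least 4 further C or T. RPS3, RPLP0, EEF1A1 and EEF2 hold such a run, whereas RPL13, ITGB1 and TNC do not at the annotated base. The windows are chr11:75399508-75399537 (plus), chr12:120201092-120201121 (minus), chr6:73521013-73521042 (minus), chr19:3985444-3985473 (minus), chr16:89560647-89560676 (plus), chr10:32958211-32958240 (minus) and chr9:115118138-115118167 (minus), in the order printed.
RPS3: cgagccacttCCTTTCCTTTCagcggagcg
RPLP0: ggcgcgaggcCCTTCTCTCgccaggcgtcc
EEF1A1: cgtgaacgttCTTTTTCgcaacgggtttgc
EEF2: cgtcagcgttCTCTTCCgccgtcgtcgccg
RPL13: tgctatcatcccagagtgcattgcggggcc
ITGB1: gggaggccccgccagcccgcgggagaggcc
TNC: tggctgcaccggccacagcctgcctactgt

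The NEE-sampled libraries held 13626934, 14312031 and 18512985 counts over genes, and the lysates 17679586 to 22009279. A count of 3 corresponds to 0.162 to 0.22 CPM in a sampled library and 0.136 to 0.17 CPM in a lysate. These floors cover counting error only, since the reads are PCR products without molecular identifiers. Over genes with a mean of at least 5 CPM, the median absolute log2 difference was 0.935 to 1.20 between a sampled library and a lysate, against 0.339 to 0.381 between sampled libraries and 0.311 to 0.339 between the 2 lysates of a time. Libraries of a group were not duplicates, since their chi-square averaged 38.3 to 63.4 over genes. Keratin 8 and keratin 18, which mark simple epithelium, were abundant in all 9 libraries. Of 12 markers listed for A549 cells, 10 were tested; the alveolar marker NKX2-1 was at 0 in all 9 libraries, SFTPB at 0 in the sampled ones and at most 0.227 CPM in lysates, and EPCAM at 1.4 to 5.8 CPM in sampled RNA and 2.08 to 4.91 CPM in lysates. CDKN2A, a locus that A549 cells are known to have lost, had 0 counts in all 9, and it was chosen after its values were seen. Of the 19 leukocyte markers listed, 8 were tested and 6 were lower in sampled RNA, against 27.5% of all genes tested. Those 6 were below 1 CPM in every sampled library. They passed the filter only through the lysates, which favours a lower call, so the count is no separate result. The summed level of all 19 markers was 12.5 to 27.2 CPM in sampled RNA and 30.9 to 46.9 CPM in lysates. CD14, which epithelial cells can also make, was not called and gave 11 to 24.8 CPM of the sum in sampled RNA. The part of these transcripts in other results was not tested. The B cell marker MS4A1 was at 0 in all 9 libraries. Of 8 endothelial and 11 fibroblast or muscle markers, 2 and 5 were tested and 0 called, and 0 of 7 red blood cell markers reached the level for testing. All 15 mitochondrially encoded genes listed were at 0 in every library, so that compartment was not measured.

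Sampled RNA was the less even of the 2 kinds of library. At equal depth, 12559, 12456 and 12457 genes reached 1 CPM in the sampled libraries, against 12987 to 13284 in the lysates, so the groups did not overlap. The 10 most abundant genes of a library took 21.5, 18.9 and 18.8% of its counts in sampled RNA and 8.59 to 9.8% in lysates. The light chain of ferritin, FTL, alone took 13.3, 9.68 and 10% in sampled RNA and 0.648 to 1.24% in lysates. Genes of cytosolic ribosomal proteins took 7.9, 6.45 and 7.42% in sampled RNA and 1.33 to 1.88% in lysates.

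Sampled RNA was also made of shorter transcripts and held a smaller share of transcripts whose protein has a hydrophobic segment. The count-weighted geometric mean transcript length was 2003 ± 64.3 bases in NEE-sampled RNA and 2891 ± 82.1 bases in the lysates (SD, n = 3 and 6). Signal peptides and membrane spans are often such segments. Genes with a segment took, as a share of protein-coding counts, 19.5 ± 0.366% in NEE-sampled RNA and 28.9 ± 0.688% in the lysates (SD, n = 3 and 6). A segment was called where the Kyte-Doolittle hydropathy averaged at least 1.6 over 19 residues. This cut is only a rough guide to membrane and secreted proteins. The aminoacyl-tRNA synthetase EPRS1 (1.88) and the actin crosslinker FLNA (1.76) pass it, whereas the secreted THBS1 (1.29) and PLAU (1.41) do not. Long non-coding RNAs took 0.694 ± 0.0598% in NEE-sampled RNA and 0.662 ± 0.0225% in the lysates (SD, n = 3 and 6), a difference that was not called (two-sided exact permutation p = 0.286). Each of the 4 other values had a two-sided exact permutation p of 0.0119, which is the smallest that 84 splits of 3 against 6 libraries allow, and 0.0149 after Benjamini-Hochberg adjustment over the 5 values. Since the 3 sampled libraries are technical replicates, that p says only that the libraries separate and does not measure variation between sampled cultures. The values are drawn from the same counts and are not independent of each other. The labels give the replicate number as a batch. Within number 1, with 1 sampled library and 3 lysates, sampled RNA differed by −541 genes, 12.6 percentage points in the top 10, −9.54 points in hydrophobic segments and −978 bases. Within number 2 these differences were −628 genes, 9.18 points, −9.70 points and −780 bases. The long non-coding share differed by 0.0997 points within number 1 and −0.0131 points within number 2, so its sign was not the same. Number 3 held 1 sampled library only.

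**Figure D1:**
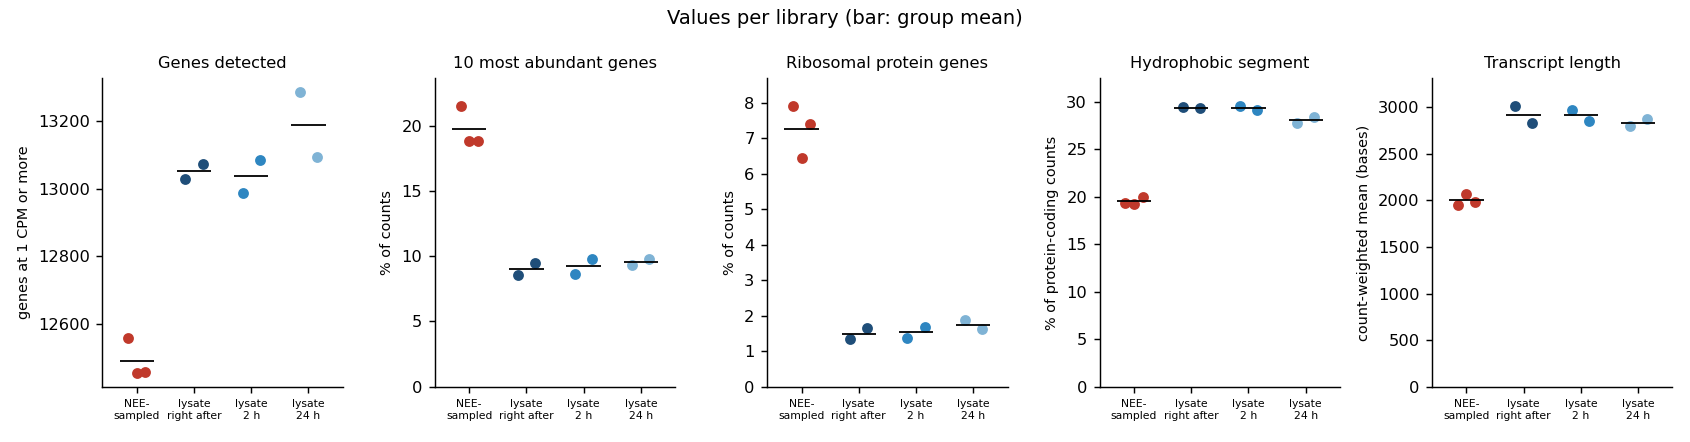
Values per library, with the 3 NEE-sampled libraries at the left and the lysates of each time (2 libraries each) to the right; points are libraries and bars are group means, and the first axis does not start at 0. Ribosomal protein genes took 6.45 to 7.9% of counts in sampled RNA and 1.33 to 1.88% in lysates, and the groups are apart in all 5 panels.

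Gene by gene, 7932 of the 14596 genes differed (54.3%; edgeR quasi-likelihood test, adjusted p under 0.05), of which 3917 (26.8% of the genes tested) were higher and 4015 (27.5%) lower in sampled RNA. In 3785 genes (25.9%) every sampled library was above every lysate, and in 4005 (27.4%) every one was below. With at least a 2-fold change required, 3130 (21.4%) were higher and 3217 (22%) lower. The median log2 fold change of all genes was −0.08. Within both replicate numbers, 7873 of the 7932 called genes (99.3%) had the same direction. The genes were called on these same libraries, so that share largely follows from the call and is no separate support. So many genes changed that the counts of members below have to be read against these shares. Expression was scaled with TMM, which assumes that most genes do not change, so a fold change is relative to the middle of the transcriptome and not a gain or loss of molecules per cell.

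**Figure D2:**
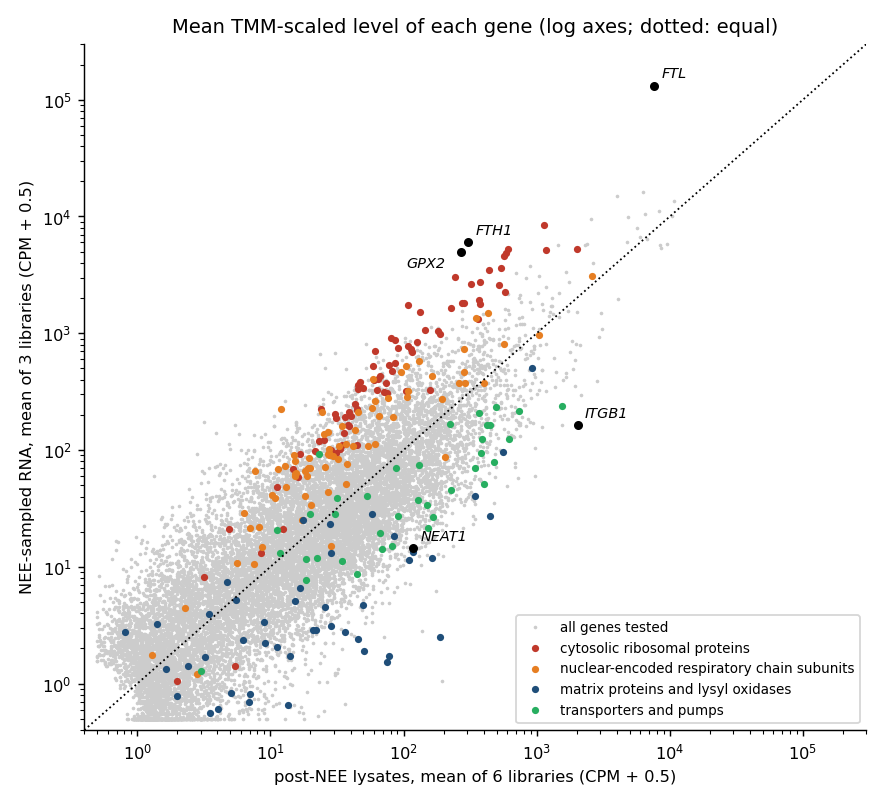
Mean TMM-scaled level of each tested gene in the 3 NEE-sampled libraries (vertical) and the 6 lysates (horizontal), both in CPM + 0.5 on log axes; the dotted line marks equal levels and colours mark 4 gene lists. Of the 80 ribosomal protein genes (median log2 fold change 2.47) 77 were called higher, and most matrix protein genes (median −2.78) lie below the line.

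The ferritin subunits, which store iron, were among the abundant transcripts that were much higher in sampled RNA. FTH1, the heavy chain on chromosome 11, had 7151, 5334 and 5624 CPM in the NEE-sampled libraries, against 239 to 432 CPM in the lysates with a median of 251. Its log2 fold change was 4.35 ± 0.12 (SE; edgeR adjusted p = 2.9e-08). FTL had 160419, 111964 and 124419 CPM in the NEE-sampled libraries, against 5954 to 11467 CPM in the lysates with a median of 6614. Its log2 fold change was 4.15 ± 0.14 (edgeR adjusted p = 8.3e-08). Every sampled library was above every lysate for both subunits. Reads of both can be shared with processed ferritin pseudogenes, and how the authors counted reads that map to several places is not given in the sources used here. The ferritin and iron list as a whole did not move in one direction: of 17 measured members 8 were higher and 6 lower, with a median of 0.42 that was 0.11 at a minimum of 5 CPM and 0.17 with the sampled libraries summed. The cytosolic iron chaperones PCBP1 and PCBP2 were higher, at 2.37 and 2.77 on the log2 scale (both chosen after their values were seen), as was biliverdin reductase B, BLVRB, at 2.73. The membrane proteins that bring iron in were lower. TFRC, the transferrin receptor, had 90.7, 54.9 and 66.6 CPM in the NEE-sampled libraries, against 451 to 893 CPM in the lysates with a median of 667, a log2 fold change of −3.28 ± 0.27 (edgeR adjusted p = 5.5e-06). The metal transporters SLC39A14 and SLC11A2 were lower by the same test, at −3.09 and −2.44. SLC40A1, the iron exporter, was higher at 1.72 and was likewise chosen after its values were seen.

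Among the transcripts most often used as references, GAPDH was higher and ACTB nearly level. GAPDH, a glycolytic enzyme, had 14563, 14666 and 15941 CPM in the NEE-sampled libraries, against 3246 to 5033 CPM in the lysates with a median of 3919, a log2 fold change of 1.93 ± 0.13 (edgeR adjusted p = 1.7e-06). ACTB, cytoplasmic β-actin, had 12513, 15006 and 13298 CPM in the NEE-sampled libraries, against 9110.1 to 11672 CPM in the lysates with a median of 11199. Its log2 fold change of 0.33 ± 0.11 (edgeR adjusted p = 0.0284) was lost in 9 of the alternatives. At the other end stood ITGB1, the integrin β1 chain that anchors cells to the matrix, with 143, 161 and 185 CPM in the NEE-sampled libraries, against 1595 to 2191 CPM in the lysates with a median of 2100.0. Its log2 fold change was −3.63 ± 0.16 (edgeR adjusted p = 3.4e-07). LOXL2, a secreted enzyme that crosslinks collagen, had 31, 25.9 and 23 CPM in the NEE-sampled libraries, against 303 to 535 CPM in the lysates with a median of 463, a log2 fold change of −4.05 ± 0.18 (edgeR adjusted p = 3.4e-07). NEAT1, the nuclear RNA around which paraspeckles form, had 13.7, 18.5 and 9.44 CPM in the NEE-sampled libraries, against 101 to 135 CPM in the lysates with a median of 118, a log2 fold change of −3.08 ± 0.26 (edgeR adjusted p = 6.4e-06). For ITGB1, LOXL2 and NEAT1 the sampled libraries all lay below the lysates. MALAT1, another nuclear RNA, had 23.4, 10.7 and 12 CPM in the NEE-sampled libraries, against 18.1 to 39 CPM in the lysates with a median of 27.2. The groups overlapped, and its log2 fold change of −0.84 ± 0.35 was not called (edgeR adjusted p = 0.0645), although it was in 7 of the alternatives.

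**Figure D3:**
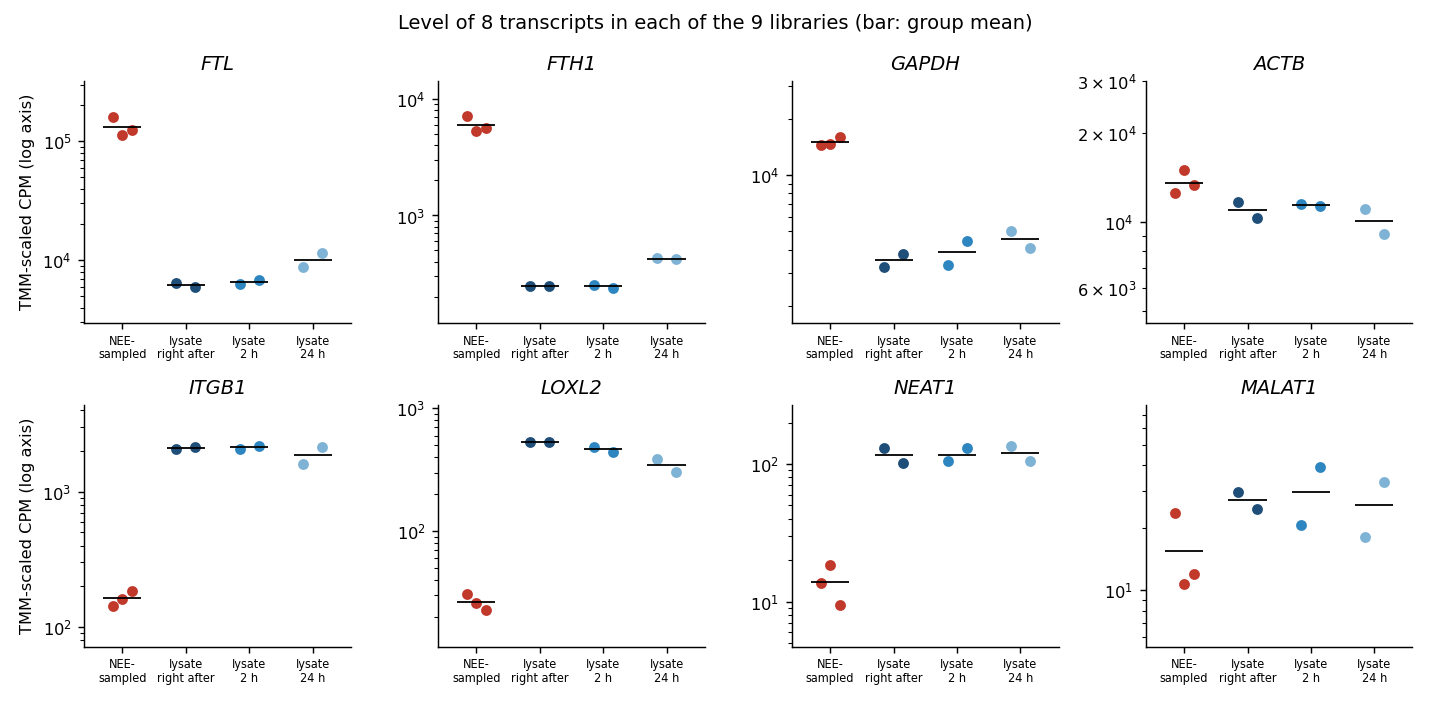
TMM-scaled level (CPM, log axis with its own range per panel) of 8 transcripts in each library; points are libraries, bars group means, NEE-sampled RNA at the left and lysates by time after NEE. The sampled libraries lie above the lysates for FTL, FTH1, GAPDH and ACTB and below them for ITGB1, LOXL2 and NEAT1, and the groups overlap for MALAT1.

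Among the gene lists, ribosomal protein genes had the largest share of members called in one direction. Of 80 cytosolic ribosomal protein genes, 77 were higher and 1 lower, and the median log2 fold change was 2.47. RPL13, of the large subunit, had 3413, 2358 and 3356 CPM in the NEE-sampled libraries, against 195 to 312 CPM in the lysates with a median of 247. RPS3, of the small subunit, had 3752, 2803 and 3890.2 CPM in the NEE-sampled libraries, against 348 to 521 CPM in the lysates with a median of 449. Their log2 fold changes were 3.64 ± 0.16 and 3.00 ± 0.14 (edgeR adjusted p = 3.4e-07 and 4.8e-07), and the groups were apart in both. RPL36A was the exception, with 1.24, 0.242 and 1.27 CPM in the NEE-sampled libraries, against 3.22 to 6.71 CPM in the lysates with a median of 4.99 (edgeR adjusted p = 0.00923, log2 fold change −2.38 ± 0.64). Genes of this family have many processed pseudogenes, and how shared reads were counted is not given, so calls on single members are uncertain.

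Of 26 translation factors and other mRNAs with a known or likely oligopyrimidine start, 20 were higher and 4 lower, with a median of 1.22. EEF1A1, which brings aminoacyl-tRNA to the ribosome, had 16710, 16660.2 and 14783 CPM in the NEE-sampled libraries, against 4480.4 to 7329.8 CPM in the lysates with a median of 6682, a log2 fold change of 1.36 ± 0.14 (edgeR adjusted p = 1.8e-05). TPT1, a small growth-related protein, stood at 3.09, EEF1B2, the nucleotide exchange factor of EEF1A1, at 2.42 and EIF3F, an initiation factor subunit, at 2.01. EIF3A, the large scaffold subunit of the same initiation factor, was lower at −1.82 ± 0.17, and the nuclear import receptors IPO7 and IPO5 were lower at −1.37 and −0.97. The oligopyrimidine run shown in the printed starts was sought at the annotated start base of genes with a RefSeq window. It stood in 43 of 64 ribosomal protein genes and 15 of 17 genes of the second list. Its share was 4.04% of all 27305 windows and 5.47% of the 10133 tested protein-coding genes matched to one. Both lists hold mRNAs known or likely to start this way, so their high shares follow from how they were chosen. Outside both lists, 175 of 496 genes with the run were higher (35.3%), with a median log2 fold change of 0.27, compared with 27.1% and a median of −0.14 for 9556 genes without it. Their median transcript lengths were 3098 and 3252 bases. A match of letters at an annotated start is a description and no proof of a functional tract.

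Transcripts of mitochondrial proteins encoded in the nucleus were mostly higher. Of 75 respiratory chain and ATP synthase subunits, 63 were higher and 2 lower, with a median of 1.71. ATP5F1D, the δ subunit of ATP synthase, had 249, 180.3 and 249.5 CPM in the NEE-sampled libraries, against 7.71 to 17 CPM in the lysates with a median of 11.5, a log2 fold change of 4.30 ± 0.24 (edgeR adjusted p = 8.1e-07). COX5A and ATP5MC2 stood at 2.29 and 2.81. The exceptions included NDUFS1 of complex I at −1.24 ± 0.23 and SDHA of complex II at −0.94 ± 0.22. With the 3 sampled libraries summed to 1, SDHA was no longer called (edgeR adjusted p = 0.0566). Of 75 mitochondrial ribosomal proteins, 57 were higher and 1 lower, with a median of 1.30; MRPL34, MRPL11 and MRPL12 stood at 3.26, 2.36 and 2.98. The lower one was MRPL38, with 0.265, 0.0808 and 0.201 CPM in the NEE-sampled libraries, against 1.11 to 4.38 CPM in the lysates with a median of 2.03. Of 27 import factors, 16 were higher and 3 lower, with a median of 0.82. The translocase subunits TOMM22, TOMM40 and TIMM13 were higher at 2.26, 2.33 and 2.24, and the matrix chaperones HSPA9 and HSPD1 lower at −1.86 and −0.45. The call of HSPD1 was lost with the sampled libraries summed (edgeR adjusted p = 0.201).

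A549 cells carry a KEAP1 mutation that leaves the NRF2 programme of detoxifying enzymes on. Of 26 NRF2 enzymes, 19 were higher and 4 lower, with a median of 1.14. GPX4, which reduces lipid peroxides, had 565, 379 and 547 CPM in the NEE-sampled libraries, against 31.3 to 43.3 CPM in the lysates with a median of 34.9, a log2 fold change of 3.78 ± 0.15 (edgeR adjusted p = 2.5e-07). GSTP1, a glutathione transferase, stood at 2.83 and AKR1C1, a ketosteroid reductase with near-identical relatives, at 2.51. TXNRD1, thioredoxin reductase, was lower at −1.38 ± 0.14, as were UGDH at −1.12 and AKR1B10 at −0.70. GPX2, an epithelial glutathione peroxidase, had 5206, 4314 and 5349.6 CPM in the NEE-sampled libraries, against 91.4 to 485 CPM in the lysates with a median of 277. Its log2 fold change was 4.24 ± 0.46 (edgeR adjusted p = 2.6e-05), and its lysate level was lower in the first replicate than in the second at each time.

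Of 17 glycolytic genes, 11 were higher and 2 lower, with a median of 0.69. TPI1, triosephosphate isomerase, and GPI, glucose phosphate isomerase, stood at 1.90 ± 0.15 and 1.56 ± 0.15, and the hexokinase HK1 at −0.65 ± 0.15, which was not called with the sampled libraries summed (edgeR adjusted p = 0.12). Of 37 proteasome subunits, 20 were higher and 7 lower, with a median of 0.68. The catalytic-core subunits PSMB6 and PSMB3 were higher at 2.15 and 1.84, whereas PSMD1, a large subunit of the cap, was lower at −2.27. Among 34 actin cytoskeleton genes and small cytosolic binders, 20 were higher and 6 lower, with a median of 0.76. The thymosins TMSB10 and TMSB4X, which bind actin monomers, stood at 2.96 ± 0.19 and 2.07 ± 0.15, and the lectin LGALS1 at 2.31 ± 0.15. The long filament crosslinkers and motors were lower: MYH9 at −2.20 ± 0.21, FLNA at −2.08 ± 0.17 and ACTN4 at −1.97 ± 0.16. Of 27 annexins and ESCRT subunits, which mend holes in the plasma membrane, 13 were higher and 8 lower, with a median of 0.51. That median was 0.31 without the second sampled library and 0.32 without the second lysate of 24 h. Of the members, 48.1% were higher and 29.6% lower, against 26.8% and 27.5% of all genes tested. The summed level of the list went the other way, with 8435 to 11012 CPM in sampled RNA and 13971 to 20292 CPM in lysates (unscaled). S100A11, VPS28 and VPS25 were higher at 2.04, 2.12 and 1.68, and ANXA5, ANXA3 and PDCD6IP lower at −1.17, −1.36 and −1.47.

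Transcripts of matrix and cell surface proteins lay at the opposite end. They were also long: the median transcript length was 5864 bases for matrix proteins, 4559.5 for integrins, 6662 for large membrane receptors and 4537 for transporters. It was 994.5 bases for cytosolic ribosomal proteins and 2962 for all genes tested. The part of length in the order of the lists was not tested. Of 45 matrix proteins and lysyl oxidases, 32 were lower and 1 higher, with a median of −2.78. TNC, tenascin C, had 2.48, 0.646 and 0 CPM in the NEE-sampled libraries, against 36.3 to 125 CPM in the lysates with a median of 61.9, and its log2 fold change was −6.21 ± 0.86 (edgeR adjusted p = 1.5e-04). HSPG2, perlecan, had 0, 0.485 and 0 CPM in the NEE-sampled libraries, against 9.14 to 18.7 CPM in the lysates with a median of 12.4, and its log2 fold change was −6.31 ± 0.88 (edgeR adjusted p = 1.5e-04). No sampled library reached the lowest lysate for either. The basement membrane laminin LAMB2 and the matricellular THBS1 stood at −3.31 and −3.15. LOXL1 was the higher member, at low levels, with 1.06, 2.02 and 3.68 CPM in the NEE-sampled libraries, against 0 to 0.817 CPM in the lysates with a median of 0.298 (log2 fold change 3.28 ± 1.12, edgeR adjusted p = 0.0288). Without either 2 h library, without the first 24 h library or with the replicate block, LOXL1 was no longer called, at 2.77 to 3.42 with adjusted p of 0.0588 to 0.116.

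Of 18 integrin subunits, 12 were lower and 1 higher, with a median of −2.06. Beside ITGB1, its partners ITGA5 and ITGA3 were lower at −2.04 ± 0.18 and −1.93 ± 0.20, and ITGAE was higher at 2.28 ± 0.21. ITGAE shares its locus with 3 genes on the other strand, and the strand setting of the counting is not given in the sources used here. Of 41 large membrane receptors, 27 were lower and 4 higher, with a median of −1.71. NRP1, a co-receptor for growth factors, had 56.3, 56.6 and 58.9 CPM in the NEE-sampled libraries, against 565 to 798 CPM in the lysates with a median of 758, a log2 fold change of −3.67 ± 0.17 (edgeR adjusted p = 3.4e-07). The receptor kinase AXL and the cadherin CDH2 stood at −3.21 and −3.05, and IGF2R was higher at 1.18 ± 0.27. Of 37 transporters and pumps, 26 were lower and 1 higher, with a median of −1.60. SLC3A2, the heavy chain of amino acid exchangers, had 208, 219 and 290.1 CPM in the NEE-sampled libraries, against 1332 to 1726 CPM in the lysates with a median of 1564, a log2 fold change of −2.70 ± 0.16 (edgeR adjusted p = 9.8e-07). The higher member was SLC16A3, a lactate exporter, at 2.02 ± 0.31.

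Proteins of the secretory route were mixed. Of 36 ER folding and translocation genes, 21 were lower and 10 higher, with a median of −0.65. HSPA5, the main ER chaperone, had 176, 105 and 211 CPM in the NEE-sampled libraries, against 1345 to 1744 CPM in the lysates with a median of 1563, a log2 fold change of −3.24 ± 0.23 (edgeR adjusted p = 2.7e-06). CANX, calnexin, and STT3A, an oligosaccharyl transferase, stood at −1.99 and −2.43. The small ER proteins SDF2L1, SSR4 and SEC61B were higher at 2.63, 2.48 and 1.98. Of 34 lysosomal genes, 20 were lower and 4 higher, with a median of −0.74, and PSAP and LAMP2 were at −2.87 and −2.30. The fibrinogen chains FGG, FGB and FGA were higher at 4.27 ± 0.66, 3.34 ± 0.55 and 2.56 ± 0.42, and FGG had 123, 158 and 305 CPM in the NEE-sampled libraries, against 2.42 to 19.1 CPM in the lysates with a median of 9.81. PLAU, a protease that activates plasminogen, was lower at −3.17 ± 0.17. Of 20 secreted plasma proteins in all, 5 were higher (25%, near the 26.8% of all genes) and 7 lower (35%, against 27.5% of all genes), with a median of 0.33 that turned negative in 3 alternatives. Of 22 cholesterol genes, 11 were lower and 4 higher, with a median of −0.60: SQLE, squalene epoxidase, stood at −3.03, and the mevalonate enzymes MVK and PMVK at 1.64 and 1.28.

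**Figure D4:**
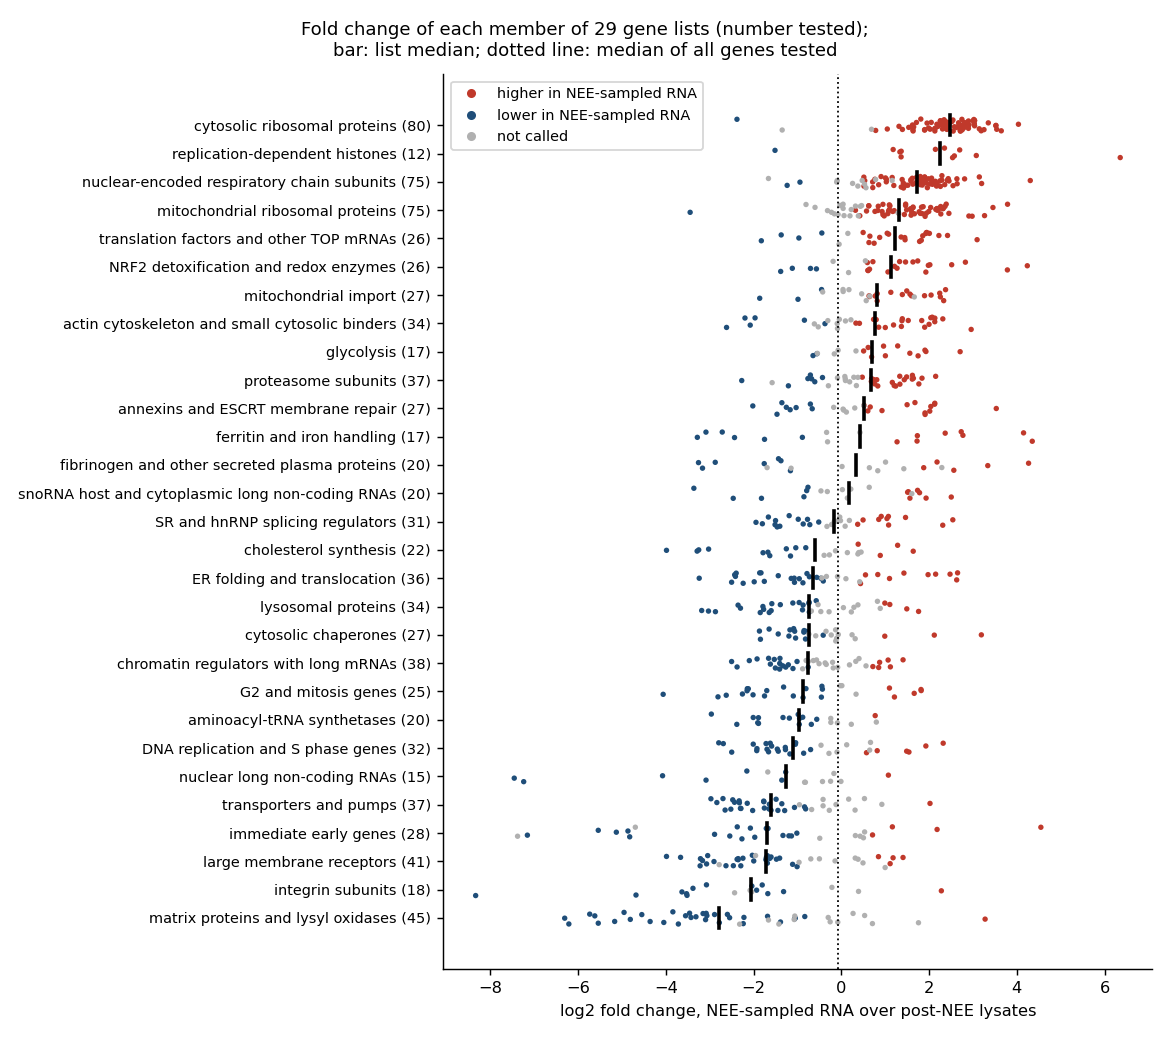
Log2 fold change (NEE-sampled RNA over lysates) of every tested member of each gene list with at least 10 tested members; points are genes, coloured by call, bars are list medians, and the dotted line is the median of all genes (−0.08). Medians run from 2.47 for cytosolic ribosomal proteins to −2.78 for matrix proteins and lysyl oxidases.

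Across all 12431 protein-coding genes with a translated protein, the fold change followed transcript length. Cut into 5 bins of equal size, the shortest transcripts (213 to 1861 bases) were higher in 60.7% and lower in 7.72% of cases, with a median log2 fold change of 1.22. The medians of the next 4 bins were 0.16, −0.29, −0.58 and −0.86, and in the longest (from 5552 bases) 10.6% were higher and 44.5% lower. Spearman's rho with the fold change was −0.42 for transcript length, −0.46 for coding length and −0.21 for the 3′ UTR. Those values are across genes, which are not independent replicates, and every gene shares the same 9 libraries. Smart-Seq2 counts grow with transcript length in every library, and read coverage along transcripts was not available to compare.

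GC content and hydrophobic segments moved with the fold change within length bins too. Medians over 5 GC bins, from AT-rich to GC-rich, were −0.62, −0.45, −0.24, 0.18 and 0.92, with a rho of 0.31. The GC-richest of the shortest transcripts had a median of 1.83 and the AT-richest of them 0.67, while among the longest these were −0.33 and −0.97. Genes with a hydrophobic segment numbered 4171, of which 35.2% were lower and 21.3% higher. Of the 8260 without it, 26.6% were lower and 31.6% higher. In each of the 5 length bins the genes with a segment had the lower median, 1.00 with and 1.31 without in the shortest and −1.13 with and −0.67 without in the longest. The AU-rich nonamer ATTTATTTA, which marks unstable mRNAs, stood on the sense strand in the 3′ UTR of 879 of 12426 transcripts, without correction for UTR length. Those genes had a median of −0.66 against −0.04 for the others. By length bin, from the shortest, the medians were 0.83 with and 1.23 without the nonamer, −0.23 with and 0.17 without, −0.53 with and −0.28 without, −0.85 with and −0.55 without, and −0.81 with and −0.87 without in the longest. The genes with it thus had the lower median in 4 of the 5 bins and not in the longest, which held 436 of them.

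**Figure D5:**
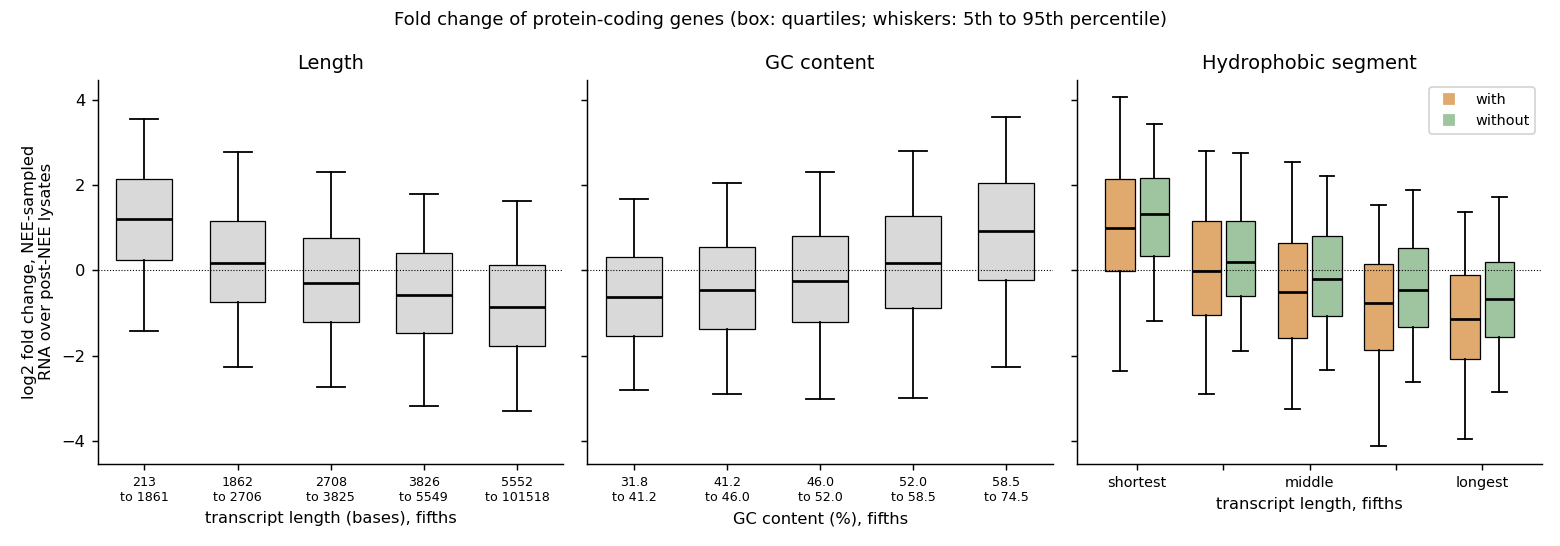
Log2 fold change (NEE-sampled RNA over lysates) of 12431 protein-coding genes by length bin, GC bin, and length bin with and without a hydrophobic segment; boxes show quartiles, the line the median, whiskers the 5th to 95th percentile. Medians fall from 1.22 for the shortest transcripts to −0.86 for the longest and climb from −0.62 for the AT-richest to 0.92 for the GC-richest.

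Long non-coding RNAs as a class were not tilted to either side. Of 1226 tested, 195 were higher (15.9%) and 191 lower (15.6%), with a median of −0.16. Both shares were below the 26.8% and 27.5% of all genes tested, so fewer members of this class were called at all. Of 15 RNAs listed as nuclear, 7 were lower and 1 higher, with a median of −1.27. MEG3, an imprinted RNA, had 0, 0.162 and 0.335 CPM in the NEE-sampled libraries, against 12.9 to 73.2 CPM in the lysates with a median of 30, a log2 fold change of −7.46 ± 0.66 (edgeR adjusted p = 7.8e-06). PVT1 stood at −1.36, and OIP5-AS1 was the higher member of that list at 1.07 ± 0.23. Where the listed RNAs lie in A549 cells was not measured. Of 20 snoRNA hosts and cytoplasmic RNAs, 7 were higher (35%) and 6 lower (30%), near the 26.8% and 27.5% of all genes tested. Their median was 0.18, and it was 0.03 without the first library right after NEE and 0.27 with the sampled libraries summed. SNHG29 had 551, 447 and 502 CPM in the NEE-sampled libraries, against 73.5 to 109 CPM in the lysates with a median of 87.6 (log2 fold change 2.50 ± 0.15). SNHG1 and SNHG12 were lower at −1.82 and −3.36. By the size of the fitted change, with some libraries at 0 counts, HHIP-AS1, LNCAROD, B4GALT1-AS1 and LINC00632 led the higher side at 5.55, 4.44, 4.49 and 4.30. PAXBP1-AS1, MIR34AHG and ZFHX3-AS1 followed MEG3 on the lower side at −6.13, −5.78 and −4.70. Antisense transcripts overlap a gene on the other strand, and without a known strand setting their reads cannot be told apart from that gene's. Of 533 pseudogenes, 34.9% were higher and 10.3% lower, and since pseudogenes share reads with their parent genes, these calls are uncertain.

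Nuclear and cell cycle functions gave further contrasts. Of 42 replication-dependent histone genes listed, 21 were found in the files and 12 were tested. Among those tested, 11 were higher and 1 lower, with a median of 2.25. The summed level of the list differed less, with 368 to 401 CPM in sampled RNA and 254 to 367 CPM in lysates (unscaled). Whether these counts came from histone mRNAs with or without a poly(A) tail was not measured, so they need not stand for histone mRNA as a whole. H2BC12 had 94, 72.2 and 110.2 CPM in the NEE-sampled libraries, against 6.25 to 13.8 CPM in the lysates with a median of 12.5 (log2 fold change 3.07 ± 0.27, edgeR adjusted p = 7.1e-06). Of 32 S phase genes, 20 were lower and 6 higher, with a median of −1.11. RRM1, the large subunit of ribonucleotide reductase, stood at −2.79 ± 0.18 and the helicase subunit MCM4 at −1.72 ± 0.14, whereas TK1, a small nucleoside kinase, was at 1.49 ± 0.13. Of 25 G2 and mitosis genes, 17 were lower and 5 higher, with a median of −0.87. TOP2A, topoisomerase II, had 145, 162 and 160.3 CPM in the NEE-sampled libraries, against 778 to 1438 CPM in the lysates with a median of 1052, a log2 fold change of −2.81 ± 0.20, and UBE2C, a small ubiquitin-conjugating enzyme, had one of 1.66 ± 0.20.

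Of 20 aminoacyl-tRNA synthetases measured, 14 were lower and 1 higher, with a median of −0.96, led by EPRS1 at −2.96 ± 0.23 and IARS1 at −2.38 ± 0.20. The higher one was QARS1 at 0.77 ± 0.14. Of 27 cytosolic chaperones, 14 were lower and 3 higher, with a median of −0.74. HSP90AB1 was lower at −1.65 ± 0.12, and the small heat shock protein HSPB1 had 619, 428 and 653 CPM in the NEE-sampled libraries, against 43.5 to 90.6 CPM in the lysates with a median of 60.3 (log2 fold change 3.19 ± 0.17, edgeR adjusted p = 7.5e-07). Of 28 immediate early genes, whose short-lived mRNAs are made within minutes of a stimulus, 17 were lower and 4 higher, with a median of −1.69. The median was not the same against each lysate time, a difference that was not tested: it was −1.44 against lysates right after NEE, −2.64 against those of 2 h and −0.81 against those of 24 h. The summed level of the list was 368 to 426 CPM in sampled RNA and 619 to 2974 CPM in lysates. MYC had 19.9, 29.7 and 22.4 CPM in the NEE-sampled libraries, against 99.5 to 201 CPM in the lysates with a median of 138 (log2 fold change −2.54 ± 0.20), while JUNB and JUND were higher at 2.18 ± 0.52 and 4.55 ± 0.83. SR and hnRNP splicing factors were mixed, with 10 higher and 13 lower of 31, and of 38 chromatin regulators 17 were lower and 6 higher, with a median of −0.75.

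Among protein-coding genes with at least 10 CPM on the higher side, the largest changes upwards were in USH1C, CA9, FOXA3, S100P, RAB37, ANKS4B, UPK1A and DCDC1. CA9, a carbonic anhydrase of hypoxic cells, had 99.4, 97.4 and 319 CPM in the NEE-sampled libraries, against 0.771 to 9.64 CPM in the lysates with a median of 1.07, a log2 fold change of 6.62 ± 0.49 (edgeR adjusted p = 3.0e-06). S100P, a calcium-binding protein, had 17.6, 13.6 and 20.9 CPM in the NEE-sampled libraries, against 0.185 to 0.719 CPM in the lysates with a median of 0.561, a log2 fold change of 5.16 ± 0.49 (edgeR adjusted p = 1.3e-05). USH1C, a scaffold of microvilli, had 58.3, 40.9 and 81 CPM in the NEE-sampled libraries, against 0 to 1.59 CPM in the lysates with a median of 0.928. ANKS4B, which binds USH1C in that scaffold, had 3.8, 13.9 and 16.1 CPM in the NEE-sampled libraries, against 0 to 0.523 CPM in the lysates with a median of 0. Several of these genes had 0 counts in some lysates, so the fitted folds of USH1C and ANKS4B (8.10 and 8.68) depend on the offset of the model. Of the genes lower in sampled RNA, TNFAIP3, a brake on NF-κB signalling, had 0.177, 0 and 0 CPM in the NEE-sampled libraries, against 2.67 to 31.3 CPM in the lysates with a median of 15.2. CPA4, a secreted carboxypeptidase, had 0.265, 0 and 0 CPM in the NEE-sampled libraries, against 6.44 to 48.8 CPM in the lysates with a median of 17.6. CRISPLD1 and CRISPLD2, which are secreted, had 0 counts in all 3 sampled libraries. With 3 counts in the whole sampled group as the floor, they were at least 222-fold and at least 161-fold lower in sampled RNA, with lysate means of 17.2 ± 5.54 and 12.5 ± 6.69 CPM (SD, n = 6).

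Each lysate time was also set against sampled RNA on its own. Against lysates right after NEE, 6394 genes were called (43.8%; 2943 or 20.2% higher and 3451 or 23.6% lower), against those of 2 h 6440 (44.1%; 2973 or 20.4% higher and 3467 or 23.8% lower) and against those of 24 h 5950 (40.8%; 2728 or 18.7% higher and 3222 or 22.1% lower). The 3 sampled libraries enter all of them, so the comparisons are not independent. The log2 fold change of FTH1 was 4.61 against lysates right after NEE, 4.62 against those of 2 h and 3.82 against those of 24 h, that of FTL 4.42 against lysates right after NEE, 4.33 against those of 2 h and 3.71 against those of 24 h. For LOXL2 it was −4.32 against lysates right after NEE, −4.12 against those of 2 h and −3.70 against those of 24 h, for ITGB1 −3.68 against lysates right after NEE, −3.71 against those of 2 h and −3.51 against those of 24 h and for NEAT1 −3.06 against lysates right after NEE, −3.08 against those of 2 h and −3.11 against those of 24 h. FTH1 levels were 247 CPM right after NEE, 246 CPM at 2 h and 427 CPM at 24 h, so the higher lysate level at 24 h lowered the ratio. The list medians against lysates right after NEE, at 2 h and at 24 h were 2.50, 2.46 and 2.51 for ribosomal proteins and −2.83, −2.86 and −2.55 for matrix proteins.

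Detection was counted without a fit. At 1 CPM, 279 genes were present in all 6 lysates and below that level in all 3 sampled libraries, with a median transcript length of 3199 bases. The reverse held for 141 genes, whose median length was 1022.5 bases (unscaled CPM). Genes present in all 9 libraries numbered 10082, with a median of 3119 bases.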

How the data were processed

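RNA-seq (Smart-Seq2, paired-end) was measured in 19 samples, of which 9 were used. The values are raw counts per gene that the authors deposited. Per the submitters' processing notes, FastQC, Trimmomatic, HISAT2 and featureCounts were used with GRCh38. Neither those notes nor the labels state tool versions, gene annotation, strandedness or what was done with multimapping reads, which can move counts of pseudogenes, multigene families and overlapping genes.

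The counts of 3 NEE-sampled and 6 lysate libraries were fitted in edgeR 4.0.16 (R 4.3.3, limma 3.58.1) with TMM scaling, 4 group means and the robust quasi-likelihood test, for genes with at least 1 CPM in at least 2 libraries. The contrast is sampled RNA minus the mean of the 3 lysate groups, with Benjamini-Hochberg adjustment over all 14596 genes and a threshold of 0.05. CPM values are TMM-scaled except where stated, in the check of cell type markers, for summed list levels and for the count floors of single libraries. The 5 library values were compared with two-sided exact permutation tests. Alternatives covered scaling, filters on low counts, DESeq2 1.42.0, limma-voom, thinning to equal depth, summed NEE libraries, 2 groups, the replicate block and leaving out each library. On counts simulated for this contrast (13974 genes tested), 200 genes were changed and the others left alike. Of genes changed 2-fold 22.4% were recovered, as were 71.6% of those changed 4-fold and 87.9% of those changed 8-fold. The test called 0.0436% of unchanged genes. Far more genes were called in the real data, so these rates need not carry over to it.

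Transcript properties came from GENCODE 29, with 1 transcript per gene (APPRIS principal and longest coding sequence first); 58207 of 62700 gene IDs matched, and for some genes that transcript is implausibly long or short. Hydropathy was computed on proteins translated from those coding sequences. Start windows came from the RefSeq promoter table. Members and gene lists were chosen with earlier results of these data known. Named genes were the markers and controls, the 8 protein-coding genes and 4 long non-coding RNAs with the largest called, non-overlapping changes of each sign (at 10 and 5 CPM), the 5 most abundant genes of sampled RNA, and up to 3 called members per list and sign with the smallest p. RPLP0 and EEF2, shown for their starts, were chosen after their values were seen. Some genes that this rule names are not reported here.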

Additional observations from a re-analysis of the deposited data

How the results depend on the processing

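Called genes numbered 7930 with RLE scaling, 7956 with upper-quartile scaling, 8350 with no filter on low counts, 7096 at 5 CPM, 8601 with DESeq2, 8288 with limma-voom and 5860 with the sampled libraries summed, against 7932. The replicate block gave 7163 genes. Deviations of same-numbered sampled and lysate libraries correlated at −0.038 to 0.016 and those of same-numbered lysates at 0.016 to 0.203. Not every pair passed 0.1, and the numbers were not taken to pair the samples. The main fit thus treats the 6 lysates as independent, although same-numbered lysates correlated positively at each pair of times. Leaving out 1 library gave 7189 to 7537 genes over all lysates, 4095 to 6197 right after NEE, 4403 to 6274 at 2 h and 3860 to 5782 at 24 h. The lowest counts came without the first library right after NEE (4095) and without the second of 24 h (3860), where the spread of a lone lysate was taken from the other groups; the cause was not tested. Leaving out 1 library also gave differences of −635 to −563 detected genes, 9.58 to 10.9 points for the top 10, −0.00197 to 0.0546 points for long non-coding RNA, −9.64 to −9.28 points for hydrophobic segments and −924 to −862 bases. With another transcript per gene, chosen after seeing the data, the length difference was −860 bases, and with coding length it was −422 bases. Of 190 named genes, 9 lost their call in at least 1 alternative, 23 times in all (ACTB, ACTG1, SDHA, HK1, PFKP, LOXL1, ZFP36, HSPD1 and ALDH1A1), MALAT1 gained one in 7 (adjusted p 0.00725 to 0.0489, by edgeR, DESeq2 or limma-voom) and 0 reversed. The plasma protein median turned to −1.08 at 5 CPM, −0.0135 with the replicate block, and −0.44 to 0.85 with 1 library left out (negative without sampled library 3); that of endothelium markers turned to 0.29 at 5 CPM, where fewer genes were tested. Depth limits genes near 1 CPM, where a few counts decide detection.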

Other observations

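A total of 3 genes had 0 counts in all sampled libraries and at least 5 CPM in every lysate. CRISPLD1 was at least 222-fold lower, ADAMTS16, a secreted protease, at least 114-fold lower, and ENSG00000287608 at least 99.4-fold lower. Each fold sets the mean of the lysates, not the lowest lysate, against a floor of 3 counts over the sampled group. In the other direction 0 genes had 0 counts in all 6 lysates and at least 5 CPM in every sampled library. Since that asks for 0 counts in 6 libraries and not in 3, the counts of genes in each direction are not alike. Keratin 8 (KRT8), keratin 18 (KRT18) and GPX2 were lower in the first lysate than in the second at each time. Of the leukocyte markers, PRF1 had 0.14 to 0.216 CPM in sampled RNA and 4.81 to 8.2 CPM in the lysates (unscaled).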
